A study of Mus musculus with 9 samples.

Results

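The 10 genes described here encode the NF-kB transcription factor subunits (Nfkb1, Nfkb2, Rel, Rela, Relb), 2 inhibitors of the pathway that it induces itself (Nfkbia, Tnfaip3), the cytokine Tnf, and the adhesion molecules Icam1 and Vcam1. They were taken by symbol through GENCODE M21 from 54532 Ensembl gene IDs in a table of raw counts, 1 ID each. All 10 passed the filter on low counts that left 14763 genes to test. Liver RNA of 9 male ApoE-/- mice on a C57BL/6 background was sequenced, 3 libraries per group. The HFD + IgG1 and HFD + PBS mice were put on a high-fat diet, with fat supplying 41% of its calories, at 4 weeks of age, stayed on it for 20 weeks and then had chow for 1 week. At 25, 26 and 27 weeks they received intraperitoneal injections, of 3 mg recombinant human IgG1 or of PBS, and they were killed at 29 weeks. Normal diet mice carried the same Apoe deletion. Their age at death and any injections are not stated, so effects of these and of diet cannot be told apart. The labels name no target of the antibody, read IgG2 and IgG3 for HFD + IgG1 replicates 6 and 7 where the titles and design have 1 antibody group, and livers were picked for sequencing by their Oil Red O staining and triglycerides.

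NF-kB is a family of dimers held in the cytoplasm by IkB proteins. Signals from TNF, IL-1 and Toll-like receptors activate the IkB kinases, IkB is degraded, and the dimers enter the nucleus, where they switch on cytokines, adhesion molecules and their own inhibitors. In the liver, Kupffer cells and other macrophages, sinusoidal endothelium and stellate cells as well as hepatocytes use the pathway, and its adhesion targets on endothelium hold leukocytes at the vessel wall. Much of its regulation is by protein degradation and movement into the nucleus, which counts of RNA do not measure.

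Libraries held 16215194 to 18538463 counts, and levels are given as CPM, counts divided by the TMM-scaled library total. As a check of the genotype, HFD + IgG1 replicate 5 (as labelled) held 235888 Apoe counts, where the other 8 libraries held 225 to 1655. Xist reached 10970 counts in the library with the label HFD + PBS replicate 6 and 17065 in the one with the label normal diet replicate 5, both with 0 counts of 4 Y-linked genes, which allows up to 3, although all mice were described as male. The median log2 fold changes of the members and of several lists are therefore given with and without these 3 libraries. Hepatocyte markers summed to 47760 to 164900 CPM per library with none of 7 at 0, so the tissue matched its label.

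Per kilobase of exon and over all 9 libraries, the members ranked from Nfkbia, at 27.8 CPM per kb, and Rela, at 17.7, through Vcam1 (9.62), Icam1 (7.01), Nfkb2 (3.91), Nfkb1 (3.58), Rel (2.07), Tnfaip3 (1.75) and Relb (1.53) to Tnf, at 0.448. Rela varied least, with 1.39 times between its highest and lowest library in CPM, and Vcam1 varied 7.80 times. Tnf varied 32.2 times, but on 1 to 52 counts per library.

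**Figure D1:**
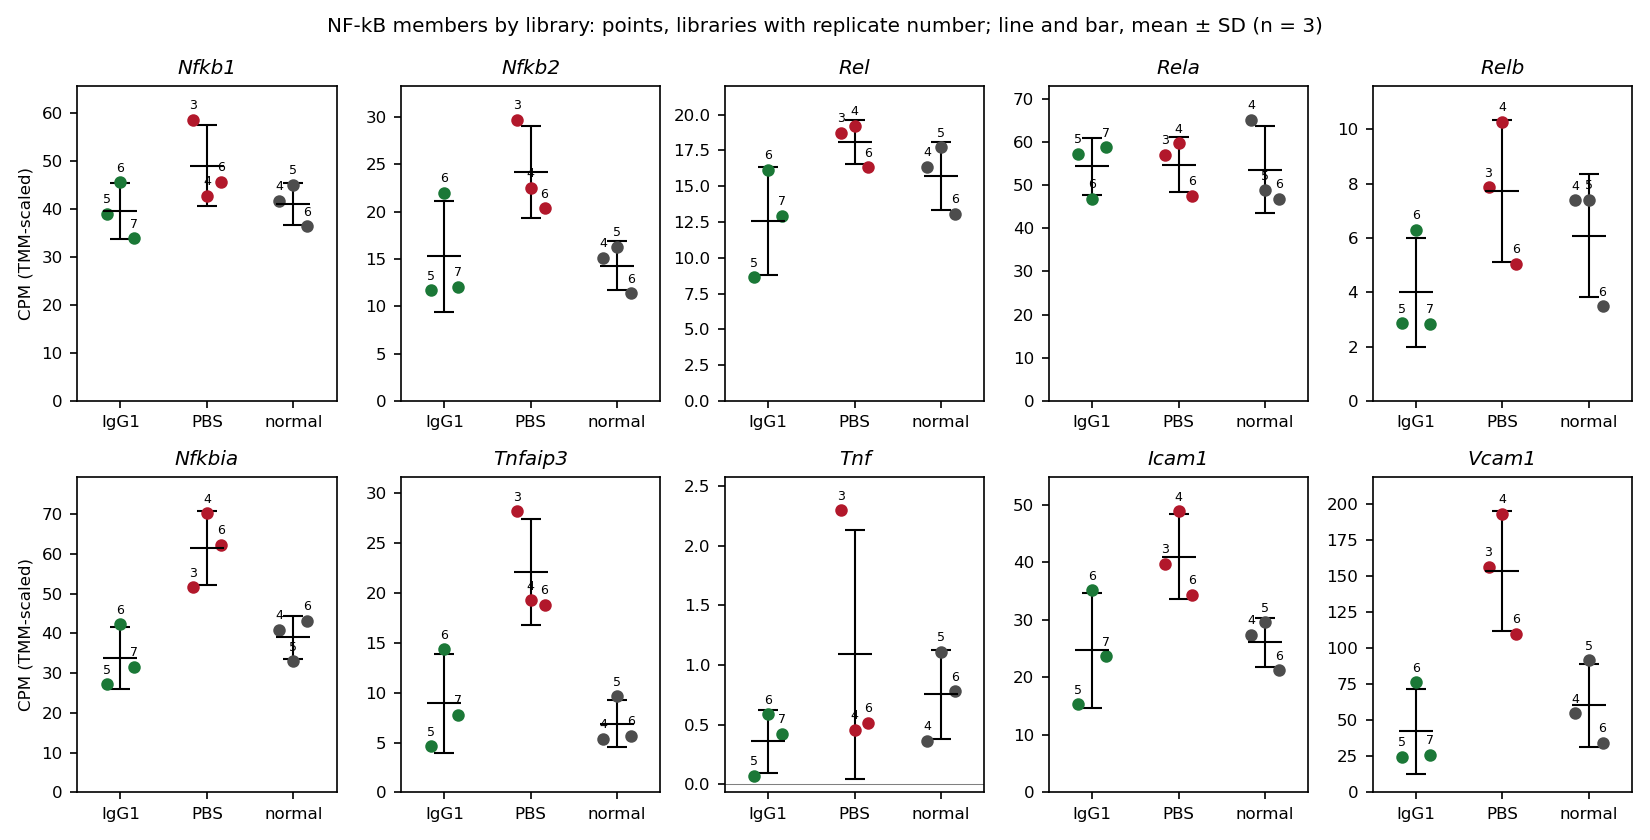
TMM-scaled CPM (y axes, 1 scale per gene) of the 10 members in HFD + IgG1, HFD + PBS and normal diet livers (x axes); points are libraries with their replicate number, and lines with bars are the mean ± SD (n = 3). Vcam1 spanned 110 to 193 CPM in HFD + PBS, above all libraries of the other groups, while Rela spanned 46.8 to 65.2 CPM over all 9 libraries.

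HFD + PBS was set against normal diet first, for the response to the high-fat diet. All 10 members had positive log2 fold changes, with a median of 0.60, where 49.7% of all genes tested were positive and their median was -0.0028. No member passed edgeR's quasi-likelihood test (Benjamini-Hochberg adjusted p under 0.05), and neither did any other gene (percent called 0), while 3076 genes (20.8%) had an unadjusted p under 0.05. At that p, 5 members were higher (9.41% of all genes were), namely Nfkb2, Nfkbia, Tnfaip3, Icam1 and Vcam1. The same 5 had no overlap between the groups (13% of all genes were higher without overlap). In these bulk livers, a change in the number of cells of a type and a change in RNA per cell cannot be told apart.

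HFD + IgG1 was then set against HFD + PBS, for the response to the antibody after a high-fat diet. All 10 log2 fold changes were negative, with a median of -0.79, where 47.2% of all genes were negative and their median was 0.04. Again 0 members and 0 of all genes passed edgeR (percent called 0), while 3569 genes (24.2%) had an unadjusted p under 0.05. At that p, 6 members were lower (11.6% of all genes were), namely Nfkb2, Rel, Nfkbia, Tnfaip3, Icam1 and Vcam1, and 4 of them, without Nfkb2 and Icam1, had no overlap (11.2% of all genes were lower without overlap). The 2 comparisons share the HFD + PBS libraries, so a low or high value there enters both with opposite signs.

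Between HFD + IgG1 and normal diet, the members' median was -0.14, against 0.00 over all genes, with 3 positive and 7 negative (50.4% of all genes were positive). None passed edgeR (percent called 0), none had an unadjusted p under 0.05 (1040 genes, 7.04%, had), and none was without overlap (11.9% of all genes were). The 95% intervals still allow sizeable differences, for example from -1.64 to 0.63 on the log2 scale for Vcam1 and from -0.52 to 1.26 for Tnfaip3.

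**Figure D2:**
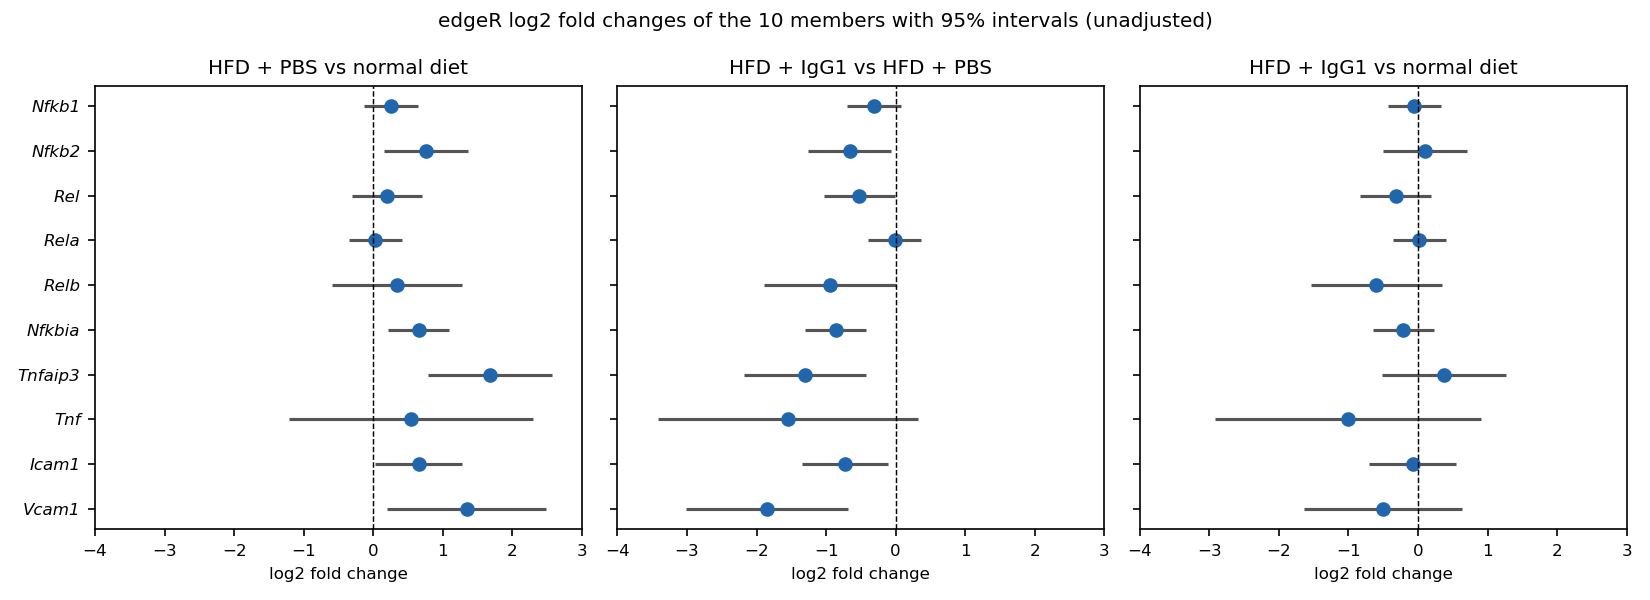
edgeR log2 fold changes (x axes) of the 10 members (rows) in the 3 comparisons, as points with unadjusted 95% intervals. Points lie right of 0 for all 10 genes in HFD + PBS against normal diet and left of 0 for all 10 in HFD + IgG1 against HFD + PBS, and every interval in HFD + IgG1 against normal diet spans 0.

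Among the subunits, Nfkb2 (ENSMUSG00000025225, chromosome 19, 46304320 to 46312385, plus strand, mm10) encodes p100, the precursor of p52 in the non-canonical pathway, and is itself an NF-kB target. It had 11.7, 22.0 and 12.1 CPM in HFD + IgG1 replicates 5, 6 and 7, 29.7, 22.5 and 20.4 in HFD + PBS replicates 3, 4 and 6, and 15.1, 16.3 and 11.4 in normal diet replicates 4, 5 and 6. All HFD + PBS libraries lay above all normal diet ones, and HFD + IgG1 replicate 6 lay within the HFD + PBS range. Its log2 fold change was 0.76 (SE 0.27, edgeR adjusted p = 0.17) for HFD + PBS against normal diet and -0.66 (SE 0.27, edgeR adjusted p = 0.18) for HFD + IgG1 against HFD + PBS. Of its 4584 exon bases, 830 are shared with other annotated genes, and no source used here states the strand setting of the counting.

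Relb (ENSMUSG00000002983, chromosome 7, 19606217 to 19629438, minus strand), the usual partner of p52, had 2.85, 6.31 and 2.84 CPM in HFD + IgG1 replicates 5, 6 and 7, 7.86, 10.3 and 5.05 in HFD + PBS replicates 3, 4 and 6, and 7.39, 7.40 and 3.48 in normal diet replicates 4, 5 and 6. HFD + IgG1 replicates 5 and 7 were the lowest of the 9, and every pair of groups overlapped. Relb lies 66.7 kb from Apoe on the same chromosome, and replicate 5 is the library with 235888 Apoe counts. Any bearing of this on the Relb values was not tested. The log2 fold change of Relb was 0.34 (SE 0.42, edgeR adjusted p = 0.67) for HFD + PBS against normal diet and -0.94 (SE 0.42, edgeR adjusted p = 0.21) for HFD + IgG1 against HFD + PBS. Omitting normal diet replicate 6 gave 0.0621 for the first value, omitting HFD + PBS replicate 6 gave 0.57, and the second was -1.44 without HFD + IgG1 replicate 6.

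Rel (ENSMUSG00000020275, chromosome 11, 23736847 to 23770970, minus strand) encodes c-Rel, the subunit most used in lymphoid and myeloid cells. It had 8.63, 16.1 and 12.9 CPM in HFD + IgG1 replicates 5, 6 and 7, 18.7, 19.2 and 16.3 in HFD + PBS replicates 3, 4 and 6, and 16.4, 17.7 and 13.1 in normal diet replicates 4, 5 and 6. HFD + IgG1 lay below HFD + PBS without overlap, though replicate 6 of each group stood at nearly the same level (log2 fold change -0.52, SE 0.23, edgeR adjusted p = 0.20). Against normal diet, HFD + PBS overlapped (0.20, SE 0.23, edgeR adjusted p = 0.64), and the value was 0.0837 without normal diet replicate 6. HFD + IgG1 against HFD + PBS was at -0.35 without HFD + IgG1 replicate 5.

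Nfkb1 (ENSMUSG00000028163, chromosome 3, 135584655 to 135691547, minus strand), which encodes p105 and its product p50, had 39.0, 45.5 and 33.9 CPM in HFD + IgG1 replicates 5, 6 and 7, 58.5, 42.7 and 45.6 in HFD + PBS replicates 3, 4 and 6, and 41.7, 45.0 and 36.3 in normal diet replicates 4, 5 and 6. One library, HFD + PBS replicate 3, stood above the rest, and the other 8 overlapped across groups. Its log2 fold changes were 0.26 (SE 0.17, edgeR adjusted p = 0.42) and -0.31 (SE 0.17, edgeR adjusted p = 0.285) in the first and the second comparison, and 0.13 and -0.19 without that library.

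Rela (ENSMUSG00000024927, chromosome 19, 5637483 to 5648130, plus strand), the main transactivating subunit p65, had 57.3, 46.9 and 58.8 CPM in HFD + IgG1 replicates 5, 6 and 7, 57.1, 59.7 and 47.5 in HFD + PBS replicates 3, 4 and 6, and 65.2, 48.8 and 46.8 in normal diet replicates 4, 5 and 6. The groups overlapped throughout. Its log2 fold change was 0.03 (95% interval -0.35 to 0.41, edgeR adjusted p = 0.94) for HFD + PBS against normal diet and -0.01 (95% interval -0.39 to 0.37, edgeR adjusted p = 0.97) for HFD + IgG1 against HFD + PBS, and the sign of both turned when single libraries were left out.

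Of the inhibitors, Nfkbia (ENSMUSG00000021025, chromosome 12, 55489410 to 55492647, minus strand) encodes IkB-alpha, which holds p65 dimers in the cytoplasm and is resynthesised on NF-kB activation. It had 27.3, 42.4 and 31.6 CPM in HFD + IgG1 replicates 5, 6 and 7, 51.6, 70.2 and 62.4 in HFD + PBS replicates 3, 4 and 6, and 41.0, 33.0 and 43.2 in normal diet replicates 4, 5 and 6. The HFD + PBS libraries lay above both other groups without overlap. HFD + PBS averaged 61.4 ± 9.33 CPM, against 39.1 ± 5.41 CPM for normal diet (SD, n = 3 each), which is 0.65 on the log2 scale (SE 0.20, edgeR adjusted p = 0.13). HFD + IgG1 averaged 33.8 ± 7.78 CPM, a log2 fold change of -0.86 against HFD + PBS (SE 0.20, edgeR adjusted p = 0.14).

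Tnfaip3 (ENSMUSG00000019850, chromosome 10, 19000910 to 19015657, minus strand) encodes A20, a ubiquitin-editing enzyme that shuts the pathway off upstream of the IkB kinases. It had 4.64, 14.3 and 7.79 CPM in HFD + IgG1 replicates 5, 6 and 7, 28.2, 19.3 and 18.8 in HFD + PBS replicates 3, 4 and 6, and 5.37, 9.63 and 5.70 in normal diet replicates 4, 5 and 6. HFD + PBS stood above both other groups without overlap, by a log2 fold change of 1.68 over normal diet (SE 0.40, edgeR adjusted p = 0.0951), which is 3.20-fold. HFD + IgG1 against HFD + PBS was at -1.30 (SE 0.39, edgeR adjusted p = 0.14).

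Regulatory sequence before the start site is shown for Nfkbia and Icam1, an inhibitor and an adhesion target with a Pearson r of log2 CPM of 0.82 over the 9 libraries. Each window holds the 250 bases before the RefSeq start (GRCm38.p6), read along the gene, with matches to the kB consensus in capitals. That consensus (GGG, then A or G, any 2 bases, 2 letters that are C or T, and CC) was searched on both strands. So was a stricter motif that falls within it (GGGA, any 2 bases, TTCC).
Nfkbia, chr12:55492648-55492897, minus strand: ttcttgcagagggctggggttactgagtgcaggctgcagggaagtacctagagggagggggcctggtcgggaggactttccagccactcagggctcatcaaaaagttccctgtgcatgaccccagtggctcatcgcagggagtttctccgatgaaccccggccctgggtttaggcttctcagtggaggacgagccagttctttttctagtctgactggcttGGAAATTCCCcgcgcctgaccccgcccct
Icam1, chr9:21015690-21015939, plus strand: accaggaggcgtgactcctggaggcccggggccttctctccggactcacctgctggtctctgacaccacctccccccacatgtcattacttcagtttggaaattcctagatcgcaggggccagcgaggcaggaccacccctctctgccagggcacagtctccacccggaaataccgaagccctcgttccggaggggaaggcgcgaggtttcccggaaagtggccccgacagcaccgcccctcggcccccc
The Nfkbia window held 1 match, GGAAATTCCC, from 29 to 20 bases before the start (positions -29 to -20), a match of both motifs on the other strand. It also holds AGGACTTTCC, which differs from the stricter motif only in its first letter and was not counted. The Icam1 window held no match to either motif. It does hold TGGAAATTCC, which differs from the stricter motif only in its first letter and so was not counted. The lack of a match says only that the searched letters are not in these 250 bases, and not that the window lacks a kB site.

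Of the 10 members, 7 had entries in the RefSeq promoter table, with 10 windows, of which 6 windows from 4 genes held the kB consensus, against 7.25% of all 32851 windows, and 3 windows from 2 genes held the stricter motif, against 1.21%. The 3 windows of Nfkb2 are counted singly although 2 of them overlap. The first Nfkb2 window held GGGAATTCCCC (-39 to -29) and GGGGCTTTCC (-11 to -2), its second GGAATGTCCC (-236 to -227) and the third GGGACTTTCC (-225 to -216). The first Tnfaip3 window held GGGACACCCC (-125 to -116) and GGAAATCCCC (-12 to -3), and that of Rel held GGGAAATCCCC (-92 to -82). By GENCODE M21, 250 of 250 bases of the first Nfkb2 window, 234 of the last and 110 of the first Tnfaip3 window lie in annotated exons of the same gene, while the Nfkbia and Icam1 windows hold 0 such bases. A match of letters is a description and not a sign of binding in these livers.

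Tnf (ENSMUSG00000024401, chromosome 17, 35199381 to 35202007, minus strand), the cytokine that both activates NF-kB and is made in response to it, was the least abundant member. It had 1, 11 and 7 counts in HFD + IgG1 replicates 5, 6 and 7, 52, 8 and 10 in HFD + PBS replicates 3, 4 and 6, and 6, 20 and 13 in normal diet replicates 4, 5 and 6. A single library, HFD + PBS replicate 3, stood far above the rest at 2.30 CPM, where the other 8 had 0.0714 to 1.11. The log2 fold change of HFD + PBS against normal diet was 0.54 (SE 0.79, edgeR adjusted p = 0.73), and -0.60 without that library. That of HFD + IgG1 against HFD + PBS was -1.55 (SE 0.84, edgeR adjusted p = 0.27), and -0.41 without it. No difference in Tnf was detectable at this depth.

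Of the adhesion molecules, Vcam1 (ENSMUSG00000027962, chromosome 3, 116109949 to 116129688, minus strand), which binds the integrin alpha4beta1 of monocytes and lymphocytes, had the largest log2 fold change of the 10 between HFD + IgG1 and HFD + PBS. It had 24.8, 76.3 and 26.0 CPM in HFD + IgG1 replicates 5, 6 and 7, 156.5, 193 and 110 in HFD + PBS replicates 3, 4 and 6, and 54.9, 91.6 and 34.5 in normal diet replicates 4, 5 and 6. HFD + PBS stood above both other groups without overlap, while HFD + IgG1 and normal diet overlapped. The log2 fold change was 1.34 (SE 0.50, edgeR adjusted p = 0.19) for HFD + PBS against normal diet and -1.85 (SE 0.51, edgeR adjusted p = 0.14) for HFD + IgG1 against HFD + PBS.

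Icam1 (ENSMUSG00000037405, chromosome 9, 21015985 to 21028817, plus strand), the ligand of the beta2 integrins LFA-1 and Mac-1, had 15.3, 35.2 and 23.6 CPM in HFD + IgG1 replicates 5, 6 and 7, 39.7, 48.8 and 34.3 in HFD + PBS replicates 3, 4 and 6, and 27.4, 29.6 and 21.2 in normal diet replicates 4, 5 and 6. HFD + PBS lay above normal diet without overlap (0.65, SE 0.28, edgeR adjusted p = 0.22). HFD + IgG1 replicate 6 reached into the HFD + PBS range (-0.73, SE 0.28, edgeR adjusted p = 0.17). Of its 4360 exon bases, 511 are shared with another annotated gene on the opposite strand.

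**Figure D3:**
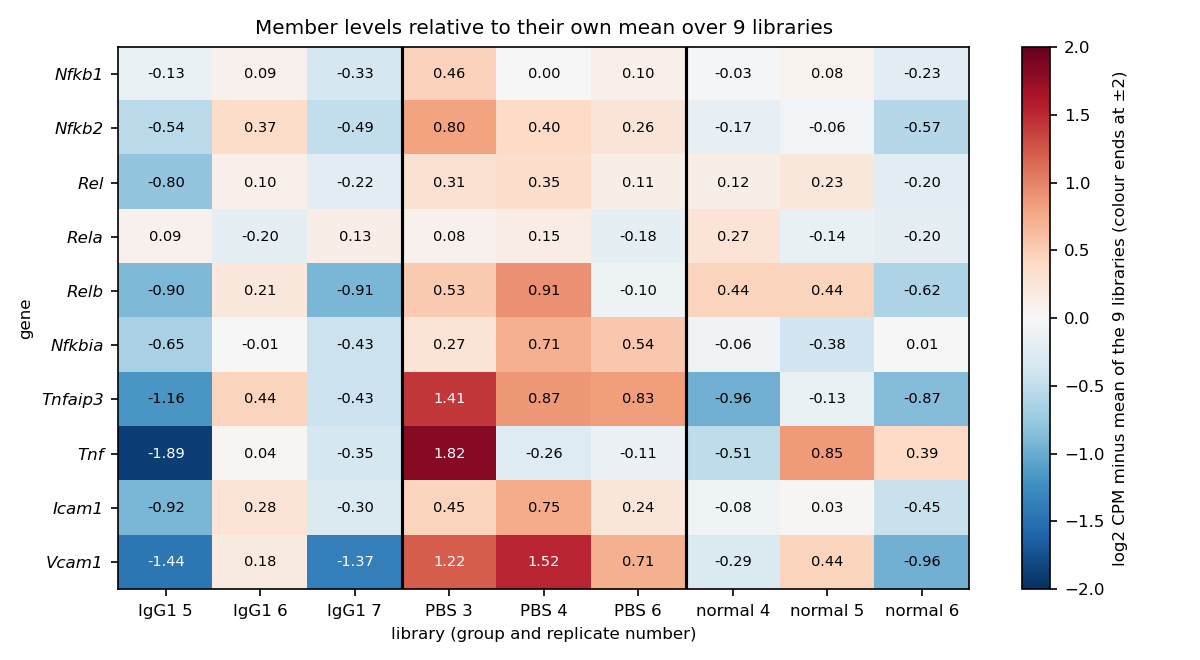
log2 CPM of each member (rows) in each library (columns, grouped as HFD + IgG1, HFD + PBS and normal diet), minus the gene's mean over the 9 libraries; black lines part the groups. HFD + PBS replicate 3 stood above the mean for all 10 genes, and HFD + IgG1 replicates 5 and 7 stood above it for 1 gene each, which was Rela, against 8 genes in HFD + IgG1 replicate 6.

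Seen by library, HFD + PBS replicates 3, 4 and 6 had 10, 9 and 7 members above their 9-library means, with HFD + IgG1 replicates 5, 6 and 7 at 1, 8 and 1, and normal diet replicates 4, 5 and 6 at 3, 6 and 2. HFD + PBS replicates 3 and 4 held the highest level of 4 and 5 members, and HFD + IgG1 replicate 5 held the lowest of 6. Some members varied together. Across 9 libraries, which share their groups, 14 of 45 member pairs had a Pearson r of log2 CPM above 0.8, led by Icam1 with Vcam1 (0.93) and Nfkb2 with Tnfaip3 (0.93), and none of the 14 held Rela. With group means removed, Icam1 with Vcam1 was at 0.87 and Rel with Icam1 at 0.97, and 12 of the 45 pairs exceeded 0.8. Nfkbia was at 0.56 with Icam1, 0.31 with Vcam1, 0.23 with Tnfaip3, 0.22 with Nfkb2, -0.06 with Tnf and -0.22 with Nfkb1.

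The gene outside the list most like each member was taken by the same measure over 9 libraries. It was Rps6ka2 for Nfkb1 (0.99), Scd2 for Nfkb2 (0.99), Calhm2 for Rel (0.98), Rhbdd1 for Rela (0.94), D430019H16Rik for Relb (0.98) and Ubald1 for Nfkbia (0.96). It was Plscr1 for Tnfaip3 (0.98), Aida for Tnf (0.96), Sh3pxd2b for Icam1 (0.99) and Gpx3 for Vcam1 (0.99). Each is the highest r among all tested genes outside the list, and is given as a description.

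The calls of members between HFD + IgG1 and HFD + PBS turned on 1 library and on the tool. The number of all genes called also turned on the filter. Without HFD + IgG1 replicate 6, edgeR called 6 of the 10 members lower than HFD + PBS, where 8.37% of 15214 genes were called lower and 7.12% higher. These were Vcam1 at -2.59 (adjusted p = 0.0077), Tnfaip3 at -1.82 (adjusted p = 0.0107), Relb at -1.44 (adjusted p = 0.0465), Icam1 at -1.07 (adjusted p = 0.0216), Nfkbia at -1.06 (adjusted p = 0.0095) and Nfkb2 at -1.02 (adjusted p = 0.0189). In that setting Rela was at 0.09 and Rel at -0.74 (adjusted p = 0.0547). The HFD + IgG1 group of that fit held only replicates 5 and 7, and replicate 5 is the library with 235888 Apoe counts. HFD + PBS replicate 6, with 10970 Xist counts, was also kept in it. Leaving out either other HFD + IgG1 library gave 0 calls, and the labels single replicate 6 out only by the word IgG2. Over all tested genes, its log2 CPM had a Pearson r of 0.974, 0.967 and 0.958 with HFD + PBS replicates 6, 4 and 3. With HFD + IgG1 replicates 5 and 7 it had 0.939 and 0.941, where replicates 5 and 7 had 0.974 with each other. Omitting replicate 6 of HFD + IgG1 also let Tnfaip3 pass in HFD + PBS against normal diet (1.68, adjusted p = 0.0272, with 1.65% of genes called higher). Neither of these 2 groups holds that library. Its omission changed the shared estimate of the spread and the number of genes tested together, and their parts were not tested apart.

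Leaving out the 3 libraries that disagree with their labels kept 2 per group, and no member passed. The member median was 0.83 for HFD + PBS against normal diet, with 8 of 10 higher without overlap (25.2% of all genes), and -0.70 for HFD + IgG1 against HFD + PBS, with 7 of 10 lower without overlap (18.2%). Vcam1 was then at 1.99 (edgeR adjusted p = 0.25) and -1.80 (edgeR adjusted p = 0.57), and Tnfaip3 at 2.13 (edgeR adjusted p = 0.14) and -1.14 (edgeR adjusted p = 0.57). Between HFD + IgG1 and normal diet the median was -0.01, and Tnfaip3, at 7.79 and 14.3 CPM against 5.37 and 5.70 CPM, was the 1 member without overlap (14% of all genes were higher without overlap).

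**Figure D4:**
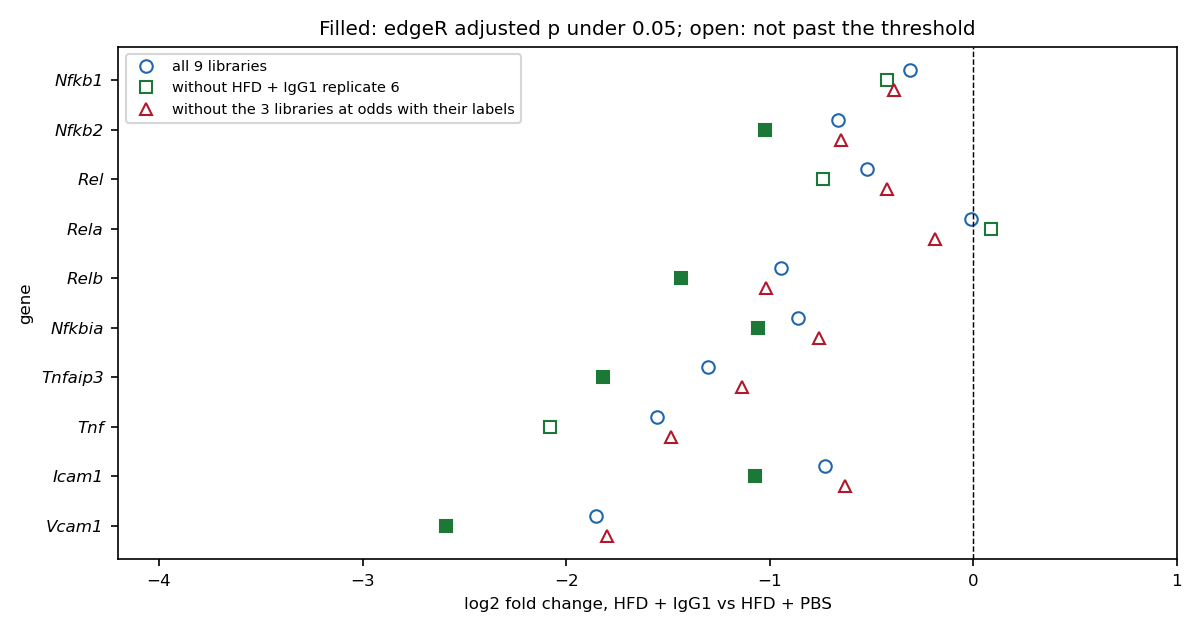
log2 fold changes of HFD + IgG1 against HFD + PBS (x axis) for the 10 members (rows), from all 9 libraries (circles), without HFD + IgG1 replicate 6 (squares) and without the 3 libraries that disagree with their labels (triangles); filled symbols passed an edgeR adjusted p of 0.05. The 6 filled symbols are all squares, and Vcam1 runs from -2.59 to -1.80.

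DESeq2 on the same counts called 3 members in each of the first 2 comparisons. Nfkbia (0.68, DESeq2 adjusted p = 0.0433), Tnfaip3 (1.71, DESeq2 adjusted p = 0.0025) and Vcam1 (1.37, DESeq2 adjusted p = 0.0471) were higher in HFD + PBS than in normal diet, where 3.6% of genes were called higher. The same 3 were lower in HFD + IgG1 than in HFD + PBS, at -0.90 (DESeq2 adjusted p = 0.0071), -1.34 (DESeq2 adjusted p = 0.0246) and -1.88 (DESeq2 adjusted p = 0.0059), where 4.75% were called lower. Between HFD + IgG1 and normal diet DESeq2 called 0 members (0.406% of genes were called higher and 0.345% lower). limma-voom called no gene in any comparison.

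Other genes of the pathway were read from 6 lists of 66 genes, 62 of which were tested. None passed edgeR in any comparison. In HFD + PBS against normal diet their median was 0.46 with 46 positive and 16 negative, and at an unadjusted p under 0.05 there were 15 higher (9.41% of all genes) and 5 lower (11.4%). In HFD + IgG1 against HFD + PBS the median was -0.47 with 15 positive and 47 negative, 2 higher (12.6% of all genes) and 22 lower (11.6%) at that p. In HFD + IgG1 against normal diet the median was -0.06 with 24 positive and 38 negative, 2 higher (3.83%) and 4 lower (3.21%) at that p. It turned to 0.14, with 40 positive and 22 negative, when the 3 libraries that disagree with their labels were left out. At that p there were then 3 higher (1.59% of all genes) and 3 lower (1.95%). Without the 3 libraries that disagree with their labels, the median was 0.65 with 18 higher (7.52% of all genes) and 3 lower (7.58%) in HFD + PBS against normal diet, and -0.53 with 1 higher (4.08%) and 11 lower (4.32%) in HFD + IgG1 against HFD + PBS. In the same 2 comparisons the list medians were then 0.99 and -0.56 for inhibitors, 1.15 and -0.70 for targets, 1.52 and -1.64 for adhesion molecules, and 1.204 and -1.29 for leukocyte partners.

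The signalling components upstream of the dimers had medians near 0 in both high-fat comparisons. The 19 receptors and proximal adaptors had medians of 0.04 for HFD + PBS against normal diet and -0.02 for HFD + IgG1 against HFD + PBS, and the 5 IkB kinases had medians of -0.04 and -0.02. At an unadjusted p under 0.05, 4 of the 19 were higher (9.41% of all genes) and 3 lower (11.4%) in the first comparison. In the second, 1 was higher (12.6%) and 4 lower (11.6%). Of the 5 kinases, 1 was higher and 2 lower at that p in the first comparison, and 1 higher and 0 lower in the second. Single kinases differed in opposite directions. Ikbkg, which encodes the scaffold NEMO, had 91.0, 77.9 and 91.2 CPM in HFD + IgG1 replicates 5, 6 and 7, 59.5, 46.5 and 68.1 in HFD + PBS replicates 3, 4 and 6, and 124, 88.7 and 108 in normal diet replicates 4, 5 and 6. Its HFD + PBS libraries lay below both other groups (-0.88 against normal diet, SE 0.18, edgeR adjusted p = 0.078; HFD + IgG1 against HFD + PBS 0.58, SE 0.18, edgeR adjusted p = 0.14). Ikbke, an inducible kinase of the interferon branch, averaged 46.6 ± 6.56 CPM in HFD + PBS livers, against 23.2 ± 8.30 in normal diet livers (1.00, SE 0.25, edgeR adjusted p = 0.10). Chuk, the kinase IKK-alpha, averaged 104.5 ± 22.5 CPM in HFD + PBS livers, against 143 ± 19.6 in normal diet livers (-0.45, SE 0.19, edgeR adjusted p = 0.22).

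Among receptors and adaptors, Tnfrsf1b, the TNF receptor 2 of leukocytes, averaged 49.6 ± 16.2 CPM in HFD + IgG1 and 83.8 ± 4.10 in HFD + PBS, without overlap (-0.76, SE 0.21, edgeR adjusted p = 0.14). Birc3, the ubiquitin ligase cIAP2 and an NF-kB target, averaged 32.2 ± 5.10 CPM in HFD + PBS livers, against 21.3 ± 1.81 in normal diet livers (0.60, SE 0.20, edgeR adjusted p = 0.15). Tab3, an adaptor of the kinase TAK1, averaged 9.95 ± 1.07 CPM in HFD + PBS livers, against 14.1 ± 1.75 in normal diet livers (-0.50, SE 0.18, edgeR adjusted p = 0.17).

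The 11 other inhibitors and regulators had medians of 0.56 for HFD + PBS against normal diet and -0.68 for HFD + IgG1 against HFD + PBS. Nfkbib, IkB-beta, averaged 27.9 ± 7.20 CPM in HFD + PBS livers, against 16.3 ± 1.76 in normal diet livers (0.77, SE 0.23, edgeR adjusted p = 0.13). The A20-binding proteins Tnip2 and Tnip1 were at -0.95 (SE 0.30, edgeR adjusted p = 0.14) and -0.68 (SE 0.24, edgeR adjusted p = 0.15) in HFD + IgG1 against HFD + PBS. The 14 tested of 16 other targets had medians of 0.66 and -0.78. Ier3, an early response gene, averaged 1.87 ± 1.30 CPM in HFD + IgG1 and 5.41 ± 1.90 in HFD + PBS (-1.51, SE 0.49, edgeR adjusted p = 0.14). The survival gene Bcl2l1 was at 0.63 in HFD + PBS against normal diet (SE 0.24, edgeR adjusted p = 0.19) and Bcl2a1b, a gene with near-identical copies whose reads may be split, was at -2.07 in HFD + IgG1 against HFD + PBS (SE 0.86, edgeR adjusted p = 0.18).

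The 5 tested of 7 other adhesion molecules were all positive in HFD + PBS against normal diet, with a median of 0.61, and all negative in HFD + IgG1 against HFD + PBS, with a median of -1.34. Selp, P-selectin, had 2.497, 3.58 and 1.15 CPM in HFD + IgG1 replicates 5, 6 and 7, 6.14, 8.41 and 3.82 in HFD + PBS replicates 3, 4 and 6, and 2.20, 2.62 and 1.80 in normal diet replicates 4, 5 and 6. Its HFD + PBS libraries lay above both other groups (1.47, SE 0.44, edgeR adjusted p = 0.13, against normal diet; HFD + IgG1 against HFD + PBS -1.34, SE 0.43, edgeR adjusted p = 0.14). Sele, E-selectin, chosen by the same rule and given as counts because of its low level, had 1, 0 and 0 counts in HFD + IgG1 replicates 5, 6 and 7, 34, 10 and 2 in HFD + PBS replicates 3, 4 and 6, and 11, 14 and 1 in normal diet replicates 4, 5 and 6. Cd34, a sialomucin of endothelium and progenitors, averaged 1.92 ± 1.08 CPM in HFD + IgG1 and 5.98 ± 2.80 in HFD + PBS (-1.63, SE 0.50, edgeR adjusted p = 0.14).

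The 8 leukocyte partners of ICAM1 and VCAM1 had the largest median of the 6 lists in HFD + PBS against normal diet, at 0.96, and all 8 were negative in HFD + IgG1 against HFD + PBS, with a median of -1.28. Itgam, the CD11b chain of Mac-1, had 0.357, 6.73 and 0.725 CPM in HFD + IgG1 replicates 5, 6 and 7, 27.2, 8.35 and 11.9 in HFD + PBS replicates 3, 4 and 6, and 3.11, 2.89 and 1.26 in normal diet replicates 4, 5 and 6. HFD + PBS lay above both other groups, and HFD + IgG1 replicate 6 was the nearest to it. Its log2 fold change was 2.71 (SE 0.96, edgeR adjusted p = 0.18) against normal diet, and that of HFD + IgG1 against HFD + PBS was -2.57 (SE 0.96, edgeR adjusted p = 0.17). Itgb7, an integrin chain that pairs with alpha4, was at 1.13 (SE 0.37, edgeR adjusted p = 0.16) and -1.34 (SE 0.38, edgeR adjusted p = 0.14) in the same 2 comparisons.

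Kupffer cell, recruited macrophage and neutrophil markers differed in the same direction as the members in both high-fat comparisons. So did the medians of T and NK cell markers, at 0.75 for HFD + PBS against normal diet and -1.10 for HFD + IgG1 against HFD + PBS. The same held for the medians of cholangiocyte (0.94 and -0.95) and endothelial markers (0.20 and -0.37). Hepatocyte markers did not, with medians of -0.21 for HFD + PBS against normal diet and 0.65 for HFD + IgG1 against HFD + PBS. The 8 Kupffer cell markers summed to 725, 2595 and 1079 CPM in HFD + IgG1 replicates 5, 6 and 7, to 2533 to 3111 in HFD + PBS and to 1824 to 2397 in normal diet. The 8 recruited macrophage markers summed to 166, 820.5 and 288 CPM in HFD + IgG1 replicates 5, 6 and 7, to 775 to 1670 in HFD + PBS and to 356 to 464 in normal diet. The 7 neutrophil markers summed to 15.1, 497 and 22.5 CPM in HFD + IgG1 replicates 5, 6 and 7, to 395 to 3067 in HFD + PBS and to 39.5 to 169 in normal diet. In all 3 lists HFD + IgG1 replicate 6 lay within the HFD + PBS range and replicates 5 and 7 below every normal diet library. All 8 Kupffer, all 8 recruited macrophage and all 7 neutrophil markers were negative in HFD + IgG1 against HFD + PBS and positive in HFD + PBS against normal diet, and no marker was at 0 over a whole group.

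The 10 endothelial markers had sums of 359 to 655 CPM in HFD + IgG1, 522 to 777 in HFD + PBS and 572 to 639 in normal diet, overlapping throughout. Their medians were 0.20 for HFD + PBS against normal diet and -0.37 for HFD + IgG1 against HFD + PBS, where 3 of the 10 were lower at an unadjusted p under 0.05. Vwf, the von Willebrand factor, was at 1.18 (SE 0.29, edgeR adjusted p = 0.10) and -1.11 (SE 0.29, edgeR adjusted p = 0.14) in these comparisons. Lyve1, a hyaluronan receptor of sinusoidal endothelium, was at 0.92 (SE 0.37, edgeR adjusted p = 0.20) and -1.63 (SE 0.37, edgeR adjusted p = 0.14). Both genes had no overlap in either comparison and were singled out after their values were seen. Of the 10 markers, 7 were positive and 3 negative in HFD + PBS against normal diet. The negative ones were Stab1 at -0.29 (lower without overlap), Stab2 at -0.07 and Kdr at -0.35. In HFD + IgG1 against HFD + PBS, 9 were negative and 1 positive, which was Kdr at 0.02. The 7 hepatocyte markers summed to 164900, 81500 and 129300 CPM in HFD + IgG1 replicates 5, 6 and 7, to 47760 to 87290 in HFD + PBS and to 71100 to 85550 in normal diet. Without the 3 libraries that disagree with their labels, the medians in the same 2 comparisons were 0.76 and -0.61 for Kupffer cell, 1.65 and -1.47 for recruited macrophage, 3.13 and -2.21 for neutrophil, 0.22 and -0.37 for endothelial and -0.26 and 0.50 for hepatocyte markers. The part of these cell types in the members' differences was not tested.

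**Figure D5:**
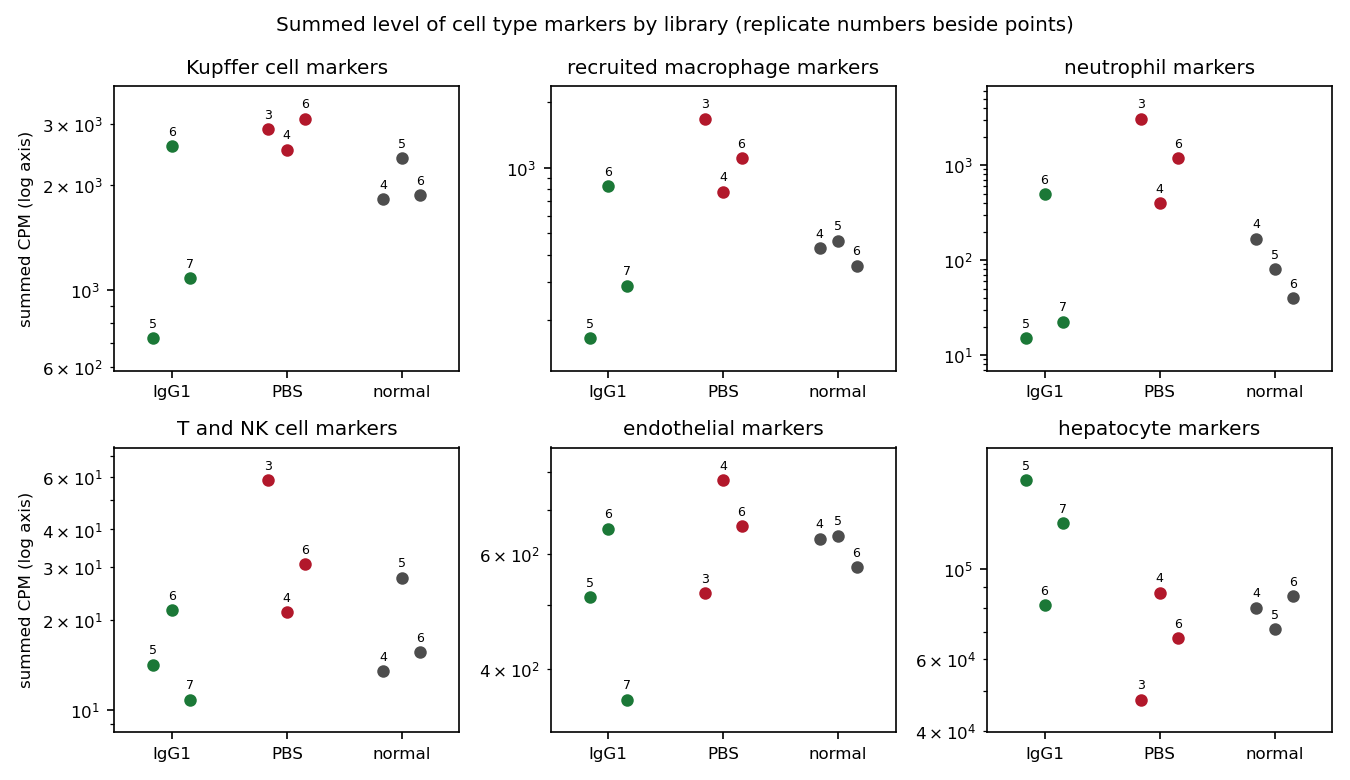
Summed CPM (log y axes) of 6 lists of cell type markers in HFD + IgG1, HFD + PBS and normal diet livers (x axes); points are libraries with their replicate number. For Kupffer cell, recruited macrophage and neutrophil markers, HFD + IgG1 replicate 6 lies at the level of HFD + PBS, and replicates 5 and 7 are the lowest of the 9.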

How the data were processed

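The authors deposited raw counts, 1 whole number for each Ensembl gene ID and library. Per the labels, RNA came from frozen liver by Trizol, and libraries were made from 1 µg with NEBNext Ultra. The submitters' processing notes name mm10 and Bowtie 0.12.2 without their roles; the counting program, annotation and strand setting are not stated there. Groups came from sample titles. The labels of HFD + IgG1 replicates 6 and 7 read IgG2 and IgG3, while the title and design place them with IgG1.

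Counts were analysed in R 4.3.3 with edgeR 4.0.16: filterByExpr (minimum count 10, minimum total 15), TMM factors, a group-means model of the 9 libraries, robust glmQLFit and glmQLFTest, two-sided, Benjamini-Hochberg over 14763 genes, threshold 0.05. The common dispersion was 0.101. SEs were obtained by dividing unshrunk log2 fold changes by √F, and intervals are at the 95% level. Precision is limited by 3 animals per group and by 16215194 to 18538463 counts per library; limits from counts cover counting error only. Alternatives were DESeq2 1.42.0, limma 3.58.1 (voom), RLE factors, no filter, at least 1 CPM in 3 libraries, the 6 libraries compared, a replicate block, no libraries at odds with their labels, and each library left out; the lists without the libraries at odds were added after seeing the data. All 10 members were named. Of each pathway list, the 3 genes with the smallest p were named, except 1 that is not reported here, and for each member the gene with the highest r. Members and lists were chosen with earlier results of these data known.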

Additional observations from a re-analysis of the deposited data

How the results depend on the processing

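No gene passed the threshold in any of the 3 comparisons with edgeR on all 9 libraries. For HFD + PBS against normal diet, the number of genes called was 1184 with DESeq2, 274 with no low-count filter, 184 when the third group was left out of the fit and 2 when the 3 libraries that disagree with their labels were left out, and ran from 0 to 576 with each library left out. For HFD + IgG1 against HFD + PBS it was 1265 with DESeq2 and 57 without a filter, and ran from 0 to 2356, the highest without HFD + IgG1 replicate 6. For HFD + IgG1 against normal diet it was 111 with DESeq2, 6 without a filter and 3 when the third group was left out, and ran from 0 to 6. limma-voom, RLE factors and the filter of 1 CPM in 3 libraries, which removed Tnf, called 0. Tnfaip3 passed for HFD + PBS against normal diet in the fit of 6 libraries (1.69, edgeR adjusted p = 0.0419, with 0.637% of genes called higher). The cause of these shifts was not tested.

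The members' median log2 fold change stayed positive for HFD + PBS against normal diet (0.35 to 0.83) and negative for HFD + IgG1 against HFD + PBS (-1.06 to -0.46) in all the settings run. With the replicate number as a block, no gene was called and the member medians were 0.35, -0.46 and -0.05 in the 3 comparisons. In that fit Rela turned to -0.0162 and 0.11 in the first 2 comparisons, Tnf to -0.54 in the first and Nfkb1 to 0.0362 in the third. Same-numbered libraries did not deviate together (r from -0.49 to 0.01), so the numbers are not taken to pair mice. Without those 3 libraries, in HFD + IgG1 against normal diet, Nfkb1 turned to 0.0147, Rela to -0.10, Icam1 to 0.27 and Vcam1 to 0.19, and without a filter Rela turned to -9e-04. With each library left out, HFD + PBS against normal diet ran from -0.0585 to 0.23 for Rela and from -0.60 to 0.93 for Tnf. HFD + IgG1 against HFD + PBS ran from -0.11 to 0.0878 for Rela. HFD + IgG1 against normal diet ran from -0.17 to 0.0352 for Nfkb1, -0.26 to 0.25 for Nfkb2, -0.0658 to 0.20 for Rela, -0.15 to 0.70 for Tnfaip3 and -0.42 to 0.17 for Icam1, and with no turn of sign from -1.25 to -0.0748 for Vcam1, -1.09 to -0.41 for Relb, -1.54 to -0.58 for Tnf, -0.54 to -0.12 for Rel and -0.40 to -0.0858 for Nfkbia. Depth limits Tnf, at 1 to 52 counts per library, and Sele, at 0 to 34.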

Other observations

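The other marker lists were read beside the members. The 8 T and NK cell markers summed to 10.9 to 21.5 CPM in HFD + IgG1, 21.3 to 58.3 in HFD + PBS and 13.5 to 27.6 in normal diet. The 5 B cell markers summed to 6.22 to 13.5 CPM in HFD + IgG1, 9.66 to 17.7 in HFD + PBS and 12.5 to 16.3 in normal diet. The 7 stellate cell markers summed to 419 to 598 CPM in HFD + IgG1, 565 to 714 in HFD + PBS and 455 to 683 in normal diet, and the 5 cholangiocyte markers to 21.1 to 24.6 CPM in HFD + IgG1, 23.5 to 37.4 in HFD + PBS and 14.5 to 19.1 in normal diet. In HFD + PBS against normal diet the medians were 0.75 for T and NK cell, -0.19 for B cell, -0.03 for stellate cell and 0.94 for cholangiocyte markers. Without the 3 libraries that disagree with their labels they were 1.54, -0.62, 0.26 and 1.19 in that order. For HFD + IgG1 against HFD + PBS the medians of these lists were -1.10, -0.59, -0.33 and -0.95, with 1, 2, 0 and 1 markers positive. They were -1.62, -0.64, -0.38 and -1.40 without those libraries. None of the marker genes passed edgeR's adjusted p of 0.05 in any comparison on all 9 libraries.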
